A study of Mus musculus with 36 samples.

Results

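The mRNA of 8 MAP kinase phosphatases (Dusp1, Dusp2, Dusp4, Dusp5, Dusp6, Dusp7, Dusp10 and Dusp16) and of Mapk14, the gene of the MAP kinase p38α, was measured in mouse bone marrow-derived macrophages (BMDMs) by RNA-seq. These genes were taken by symbol and are 9 of the 54532 genes in the count table. All 9 passed the filter on low counts in every comparison. On build mm10 (GRCm38) the genes lie at chr17:26505590-26508519 on the minus strand (Dusp1), chr2:127336159-127338376 plus (Dusp2), chr8:34807297-34819894 plus (Dusp4), chr19:53529109-53542431 plus (Dusp5), chr10:99263231-99267489 plus (Dusp6), chr9:106368632-106375724 plus (Dusp7), chr1:184013302-184075636 plus (Dusp10), chr6:134715468-134792625 minus (Dusp16) and chr17:28691329-28748406 plus (Mapk14), and each value is a count over the whole gene. KO cells came from female LysM-Cre;Bmal1 flox/flox mice, in which Cre is made from the lysozyme 2 promoter of myeloid cells and removes the floxed part of the clock gene Bmal1 (Arntl in the table). WT cells came from female Bmal1 flox/flox mice without Cre, and all mice were adult and on C57BL/6. Marrow was grown for 7 days with macrophage colony-stimulating factor, and the cells were then given 1 of 4 treatments for 6 h: DMSO vehicle, 100 µM CCM, 100 nM lipopolysaccharide (LPS), or LPS with CCM. CCM (Core Circadian Modulator) is a small molecule that binds the PASB domain of BMAL1, and LPS is a bacterial cell wall component sensed by Toll-like receptor 4. Each treatment had 3 WT and 6 KO replicates, 36 libraries in all, and the labels give DMSO with LPS alone and with CCM alone too.

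MAP kinases such as ERK, JNK and p38 are switched on by phosphorylation of a threonine and a tyrosine in their activation loop, and the dual-specificity MAP kinase phosphatases switch them off by removing both phosphates. In macrophages LPS activates p38, JNK and ERK, which raise the production and the stability of cytokine mRNAs, and the phosphatases form part of the negative feedback on that response. DUSP1, DUSP2, DUSP4 and DUSP5 act in the nucleus, DUSP6 and DUSP7 act in the cytoplasm and prefer ERK, and DUSP10 and DUSP16 prefer p38 and JNK. mRNA levels were measured here, not phosphorylation or enzyme activity.

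The bases upstream of 4 phosphatase genes are shown because they belong to the broad phosphatase Dusp1 and to the genes with the largest called rises (Dusp2, Dusp16) and a called fall (Dusp5) under LPS, and because Dusp1 and Dusp2 hold the element that BMAL1 binds. These 4 were picked after their values and motif matches had been seen. They are the 200 bases before the annotated start site from the RefSeq promoter table (build GRCm38.p6), written 5′ to 3′ on the gene's strand. Capitals mark an E-box (CACGTG, bound by BMAL1 with its partner CLOCK), a full cyclic AMP response element (CRE, TGACGTCA) or a serum response element (SRE), and the Dusp16 sequence holds none of these.
Dusp1, chr17:26508473-26508672, minus strand: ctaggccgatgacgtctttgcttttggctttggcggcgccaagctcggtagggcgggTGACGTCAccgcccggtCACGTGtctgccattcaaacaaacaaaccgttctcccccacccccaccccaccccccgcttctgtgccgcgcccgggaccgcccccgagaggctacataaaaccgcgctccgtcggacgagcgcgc
Dusp2, chr2:127335959-127336158, plus strand: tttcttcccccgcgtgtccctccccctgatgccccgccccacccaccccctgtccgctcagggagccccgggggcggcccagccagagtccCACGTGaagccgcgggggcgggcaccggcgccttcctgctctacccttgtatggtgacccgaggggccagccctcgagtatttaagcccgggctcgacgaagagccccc
Dusp5, chr19:53528945-53529144, plus strand: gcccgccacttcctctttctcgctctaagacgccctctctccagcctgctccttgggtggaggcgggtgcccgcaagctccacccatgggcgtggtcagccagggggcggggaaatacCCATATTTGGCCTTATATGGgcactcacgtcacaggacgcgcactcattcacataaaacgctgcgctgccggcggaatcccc
Dusp16, chr6:134792629-134792828, minus strand: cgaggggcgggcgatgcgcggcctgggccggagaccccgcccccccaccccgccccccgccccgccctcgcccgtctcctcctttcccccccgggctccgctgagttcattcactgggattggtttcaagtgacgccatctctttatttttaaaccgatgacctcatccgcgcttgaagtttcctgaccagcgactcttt

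The promoter table held 8 of the 9 genes, with 2 start sites for Mapk14, and Dusp4 was not among them. Windows of 300 bases, 250 before the start site and 50 from it on, were searched on both strands. An E-box lay at -126 to -121 of Dusp1 and at -109 to -104 of Dusp2, and 7.15% of the 32851 promoters of this length held one. The full CRE of Dusp1, at -143 to -136, was a match found in 1.79% of all promoters. Dusp5 had an SRE at -82 to -73 and another, directly beside it, at -72 to -63, against 1.63% of promoters with at least 1. The CRE core (TGACG), which also lies inside the full element, was found in 20.8% of promoters and in the windows of Dusp1, Dusp2, Dusp5 and Dusp16. No AP-1 motif (TGANTCA, in 7.81% of promoters) and no NF-κB consensus (8.46%) occurred in the windows of the 8 genes. The windows of Dusp6, Dusp7, Dusp10 and Mapk14 held none of the motifs searched. For Dusp10 the 200 bases before the start site used, chr1:184034181-184034380, lie inside the counted gene, which begins at 184013302. Bases before that gene start were not searched. The 200 bases before the second Mapk14 start site, chr17:28692368-28692567, lie inside the counted gene too. Those of Dusp1, Dusp5 and the first Mapk14 start site run partly into it. A match is a description of the letters in the window and was not tied to binding or to a change in mRNA.

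**Figure D1:**
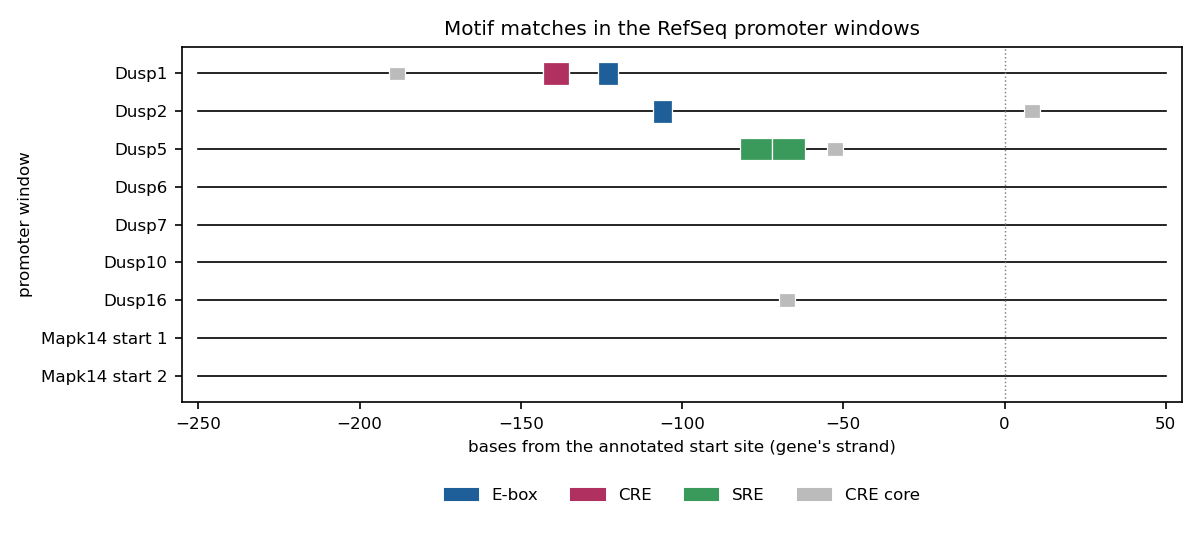
Positions of motif matches in the RefSeq promoter windows of 8 genes, in bases from the annotated start site along the gene's strand. Coloured boxes are E-boxes, CREs and SREs and grey boxes CRE cores. The E-boxes of Dusp1 and Dusp2 lie between -126 and -104, and the windows of Dusp6, Dusp7, Dusp10 and both starts of Mapk14 are empty.

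Libraries held 13469262 to 28288923 counts, and a gene of the set had 29 to 14892 counts in a library. Arntl, counted over its whole length, ran from 7.52 to 12.9 CPM (counts per 1000000 of the scaled library total) in the WT libraries and from 2.02 to 10.8 in the KO libraries, and it did not pass the test between the genotypes with vehicle (log2 fold change -0.34 ± 0.26 SE, edgeR adjusted p = 1). Transcript outside the floxed part is counted too, so this total does not check the genotype labels. All 7 macrophage markers were detected, and their summed level was 15810 to 19360 CPM in WT and 11180 to 19980 CPM in KO libraries. KO replicate 2 was at 16890 to 19980 CPM, while every library of the other KO replicates lay below every WT library, at 14480 CPM or less. Replicate 2 also had the highest Arntl of the KO libraries with CCM (10.8 CPM), LPS (9.03) and LPS with CCM (9.33). The part of this split in the results was not tested. The 4 libraries of KO replicate 6 stood apart: against the median of the other 5 KO replicates of the same treatment, Dusp1 was at 0.395 to 0.495 times, Dusp4 at 0.163 to 0.337 times and Dusp2 at 1.504 to 2.215 times their level. Summed neutrophil markers (8 of 8 detected, none at 0) were 952 to 980 CPM in these 4 libraries, 328 to 903 in KO replicates 1 to 5 and 322 to 556 in WT, and their part in the results was not tested. Summed B cell markers were 1.33 to 9.99 CPM, erythroid 1.10 to 10.9 and T cell 5.74 to 33.0 over all libraries, with replicate 6 highest for the first pair, while fibroblast markers ran from 302 to 1660 CPM and replicate 6 lay inside that range. Every test that uses KO libraries was therefore run with and without replicate 6. Fewer cells of a type and less RNA per cell cannot be told apart in bulk RNA.

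Compared per kb of gene length, Dusp1 was the most abundant transcript of the set in all 8 groups and Mapk14 came next. With vehicle in WT, Dusp1, the broad phosphatase of p38, JNK and ERK, was at 148 ± 5.29 CPM per kb (SD, n = 3) and Mapk14 at 29.7 ± 0.258. Dusp4, Dusp6, Dusp7 and Dusp5 followed at 13.6, 12.5, 11.2 and 8.81 CPM per kb, and each overlapped its neighbour in this order. Dusp2 lay at 3.12 CPM per kb, and Dusp10 (1.66) and Dusp16 (1.62) were lowest and overlapped each other. With LPS the order changed. In WT with LPS, Dusp4 (23.99), Dusp2 (17.4) and Dusp16 (16.5 CPM per kb) followed Mapk14, with overlap between neighbours, and Dusp10 alone was last at 1.41. In KO the first and second places were the same, and in KO with LPS every neighbour from Dusp4 down to Dusp5 overlapped, in the order Dusp4, Dusp2, Dusp16, Dusp6, Dusp7 and Dusp5.

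**Figure D2:**
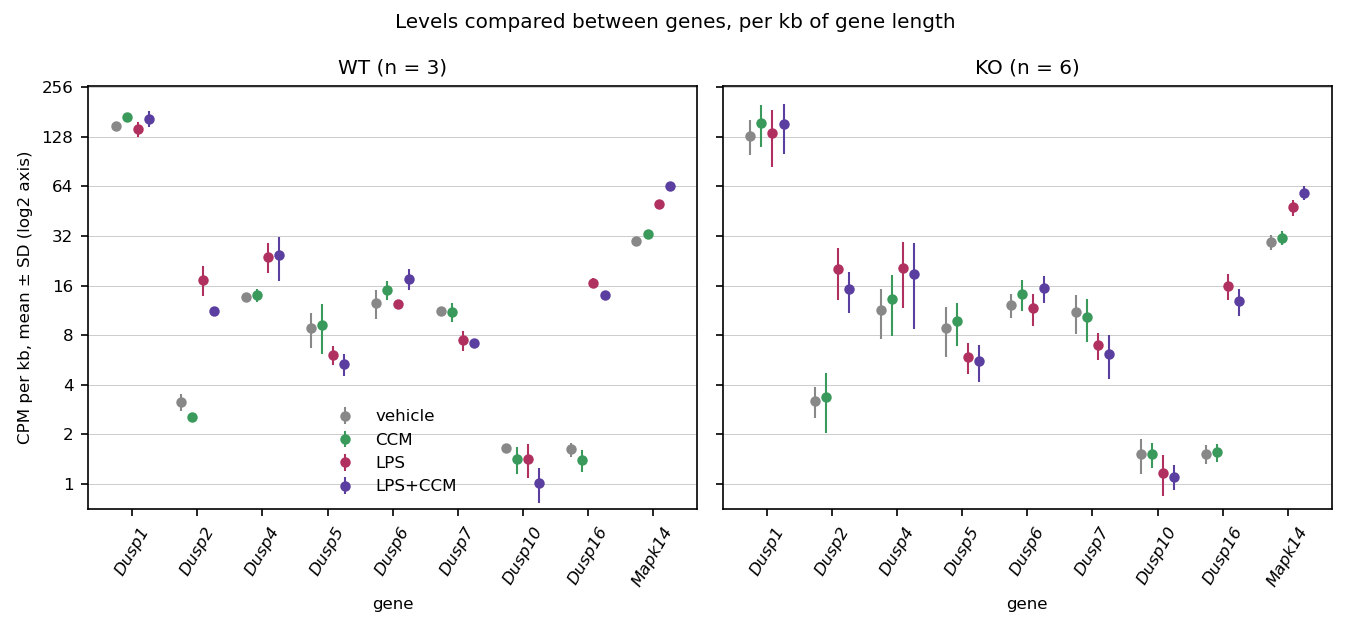
Mean CPM per kb of gene length ± SD for the 9 genes (log2 axis) in WT (left, n = 3 per treatment) and KO (right, n = 6), by treatment. Dusp1 is highest and Mapk14 second in each group, while Dusp16 and Dusp2 move from the bottom of the range with vehicle or CCM to its middle with LPS.

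The first comparison asked what LPS did to the set. In the edgeR fit without the block, LPS raised Dusp16, Dusp2 and Mapk14 and lowered Dusp5 and Dusp7 in both genotypes, and it raised Dusp4 in WT. Blocked on replicate, Dusp4 was also called higher in KO, and Dusp10 lower. In WT 4 of 9 genes were called higher, against 30.6% of the 14501 genes tested, and 2 lower, against 32.4%. In KO 3 were called higher, against 22.4% of 13648 genes, and 2 lower, against 24.7%. Blocked on replicate these KO counts were 4, against 34.1%, and 3, against 37.5%. The median log2 change over the set was 0.01 in WT and 0.05 in KO, beside -0.05 over all genes in each. With so much of the transcriptome moving, these shares are of the same order as the background.

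Dusp16, a phosphatase of JNK and p38, had the largest log2 change of the 9 in both genotypes. In WT it was at 11.2, 13.35 and 13.33 CPM with vehicle and at 121, 139 and 126 CPM with LPS. The ranges lay far apart and each LPS library was above every vehicle library, a rise of 3.38 ± 0.09 SE on the log2 scale (edgeR adjusted p = 7.86e-10), or 10.2 times on the ratio of means. In KO, vehicle libraries ran from 9.76 through a median of 12.0 to 14.0 CPM and LPS libraries from 79.8 through 132 to 141 CPM. The rise in KO was 3.396 ± 0.14 SE (edgeR adjusted p = 5.39e-10), and 3.45 without replicate 6, which had the lowest LPS value. Dusp16 overlaps a gene of the other strand, Gm36328, which had 61 counts in all libraries together, and whether reads were assigned by strand is not given in the sources used here.

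Dusp2, a nuclear phosphatase found mainly in blood cells, rose from 5.54, 7.01 and 6.22 CPM with vehicle to 28.4, 33.7 and 42.3 CPM with LPS in WT. The ranges did not overlap, and the log2 change was 2.51 ± 0.16 SE (edgeR adjusted p = 3.23e-07). The KO libraries ran from 5.03 through 6.03 to 8.99 CPM with vehicle and from 29.4 through 36.7 to 68.0 CPM with LPS. The highest value of both KO groups was that of replicate 6, and the ranges did not overlap with or without it. The KO change was 2.68 ± 0.24 SE (edgeR adjusted p = 9.84e-07), and 2.57 without replicate 6.

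Mapk14, the p38α kinase on which several of these phosphatases act, was at 131, 129 and 131 CPM with vehicle and at 223, 222 and 210 CPM with LPS in WT. Replicates lay close together, and the rise was 0.78 ± 0.05 SE (edgeR adjusted p = 6.22e-07), or 1.68 times. In KO the values were 104.5 through 132.5 to 141 CPM with vehicle and 167 through 212 to 240 CPM with LPS, again without overlap. The KO rise was 0.70 ± 0.09 SE (edgeR adjusted p = 2.1e-05), and 0.70 without replicate 6. With total counts alone as the scaling, the KO rise was 0.32 and no longer passed (edgeR adjusted p = 0.0717). Mapk14 overlaps AC170998.1 on the same strand (161 counts in all libraries together), so reads could be split between them.

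Among the other nuclear phosphatases, Dusp4 rose and Dusp5 fell in WT, and Dusp1 did not pass the test with TMM scaling. Dusp4, which acts on ERK, JNK and p38, was at 36.2, 37.2 and 38.4 CPM with vehicle and 80.6, 63.2 and 53.3 CPM with LPS in WT, a rise of 0.84 ± 0.13 SE without overlap (edgeR adjusted p = 0.000259). Dusp4 in KO ran from 11.7 through 34.55 to 41.2 CPM with vehicle and from 13.2 through 59.6 to 87.6 CPM with LPS. Replicate 6 gave the lowest value of both KO groups, and without it the ranges were 29.1 to 41.2 and 54.5 to 87.6 CPM and did not overlap. The KO change of 0.84 ± 0.36 SE did not pass (edgeR adjusted p = 0.0694). It passed without replicate 6 (0.88, edgeR adjusted p = 3.68e-05, where 32.6% of genes were called higher), and in the fit blocked on replicate (0.80, edgeR adjusted p = 1.53e-05, where 34.1% were called higher).

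Dusp5, a nuclear phosphatase of ERK whose promoter holds the paired SRE shown above, fell with LPS. In WT it was at 17.8, 19.9 and 27.7 CPM with vehicle and at 15.5, 12.7 and 16.7 CPM with LPS, without overlap, a change of -0.52 ± 0.17 SE (edgeR adjusted p = 0.0235). In KO it ran from 14.5 through 21.04 to 32.6 CPM with vehicle and from 11.2 through 14.2 to 19.2 CPM with LPS. These ranges overlapped. KO replicates 1 to 3 lay between 14.5 and 17.9 CPM with vehicle and replicates 4 to 6 between 24.2 and 32.6, but each same-numbered LPS library was lower, in 6 of 6 pairs. The KO change was -0.57 ± 0.22 SE (edgeR adjusted p = 0.0467), and -0.55 without replicate 6 (edgeR adjusted p = 0.0457). The call was not stable: it was lost in WT without LPS replicate 1, LPS replicate 2 or vehicle replicate 3 (-0.54, -0.41 and -0.29, edgeR adjusted p of 0.0514 to 0.0979), and in KO without any one of replicates 1 to 5 (0.0508 to 0.106).

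Dusp1 is an immediate early gene, usually raised within an hour of LPS, and was sampled here at 6 h only. In WT it was at 414, 385 and 397 CPM with vehicle and 346, 385 and 428 CPM with LPS, and the groups overlapped. The log2 change was -0.02, with a 95% interval of -0.19 to 0.15 (edgeR adjusted p = 0.863). KO libraries ran from 188 through 373 to 419 CPM with vehicle and from 160 through 359 to 548 CPM with LPS, and the interval of the change, -0.50 to 0.60, was wider. The WT value depended on the scaling: Dusp1 was called lower with total counts alone (-0.43, edgeR adjusted p = 0.000481) and with upper-quartile scaling (-0.20, edgeR adjusted p = 0.0462). Without replicate 6 the KO change was 0.08 and the LPS libraries still spread from 290 to 548 CPM.

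Of the cytoplasmic ERK phosphatases, Dusp7 fell and Dusp6 did not pass the test. Dusp7 was at 39.7, 38.0 and 35.4 CPM with vehicle and at 21.4, 25.2 and 28.2 CPM with LPS in WT, a fall without overlap of -0.56 ± 0.10 SE on the log2 scale (edgeR adjusted p = 0.000583). Dusp7 in KO ran from 17.4 through 40.7 to 43.8 CPM with vehicle and from 15.2 through 23.97 to 28.0 CPM with LPS. These ranges overlapped through replicate 6 and did not overlap without it, with changes of -0.66 ± 0.19 SE (edgeR adjusted p = 0.011) and -0.72 (edgeR adjusted p = 2.39e-07). Dusp6, itself an output of ERK signalling, was at 30.4, 41.3 and 45.7 CPM with vehicle and 37.7, 41.1 and 37.8 CPM with LPS in WT. The groups overlapped, the change was 0.01 with an interval of -0.29 to 0.32 (edgeR adjusted p = 0.934), and in KO, where vehicle libraries ran from 29.1 through 40.6 to 44.9 CPM and LPS libraries from 22.7 through 39.5 to 44.5 CPM, it was -0.07 (edgeR adjusted p = 0.749, and -0.03 without replicate 6).

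Dusp10, the other p38 and JNK phosphatase, was low throughout. In WT it was at 5.01, 4.92 and 5.22 CPM with vehicle and 3.54, 3.91 and 5.43 CPM with LPS, with overlap (-0.20 ± 0.19 SE, edgeR adjusted p = 0.393, and -0.61 with edgeR adjusted p = 0.0158 under total counts alone). Its KO values ran from 2.71 through 4.90 to 5.80 CPM with vehicle and from 2.35 through 3.34 to 4.76 CPM with LPS, and LPS was lower in 6 of 6 same-numbered pairs. The change of -0.37 ± 0.21 SE did not pass (edgeR adjusted p = 0.171). Without replicate 6, lowest in both groups, it was -0.39 (edgeR adjusted p = 0.0529). Blocked on replicate it was -0.38 and passed (edgeR adjusted p = 0.0265), in a fit that called 37.5% of genes lower. Dusp10 overlaps 1700056E22Rik on the other strand (218 counts in all libraries together).

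**Figure D3:**
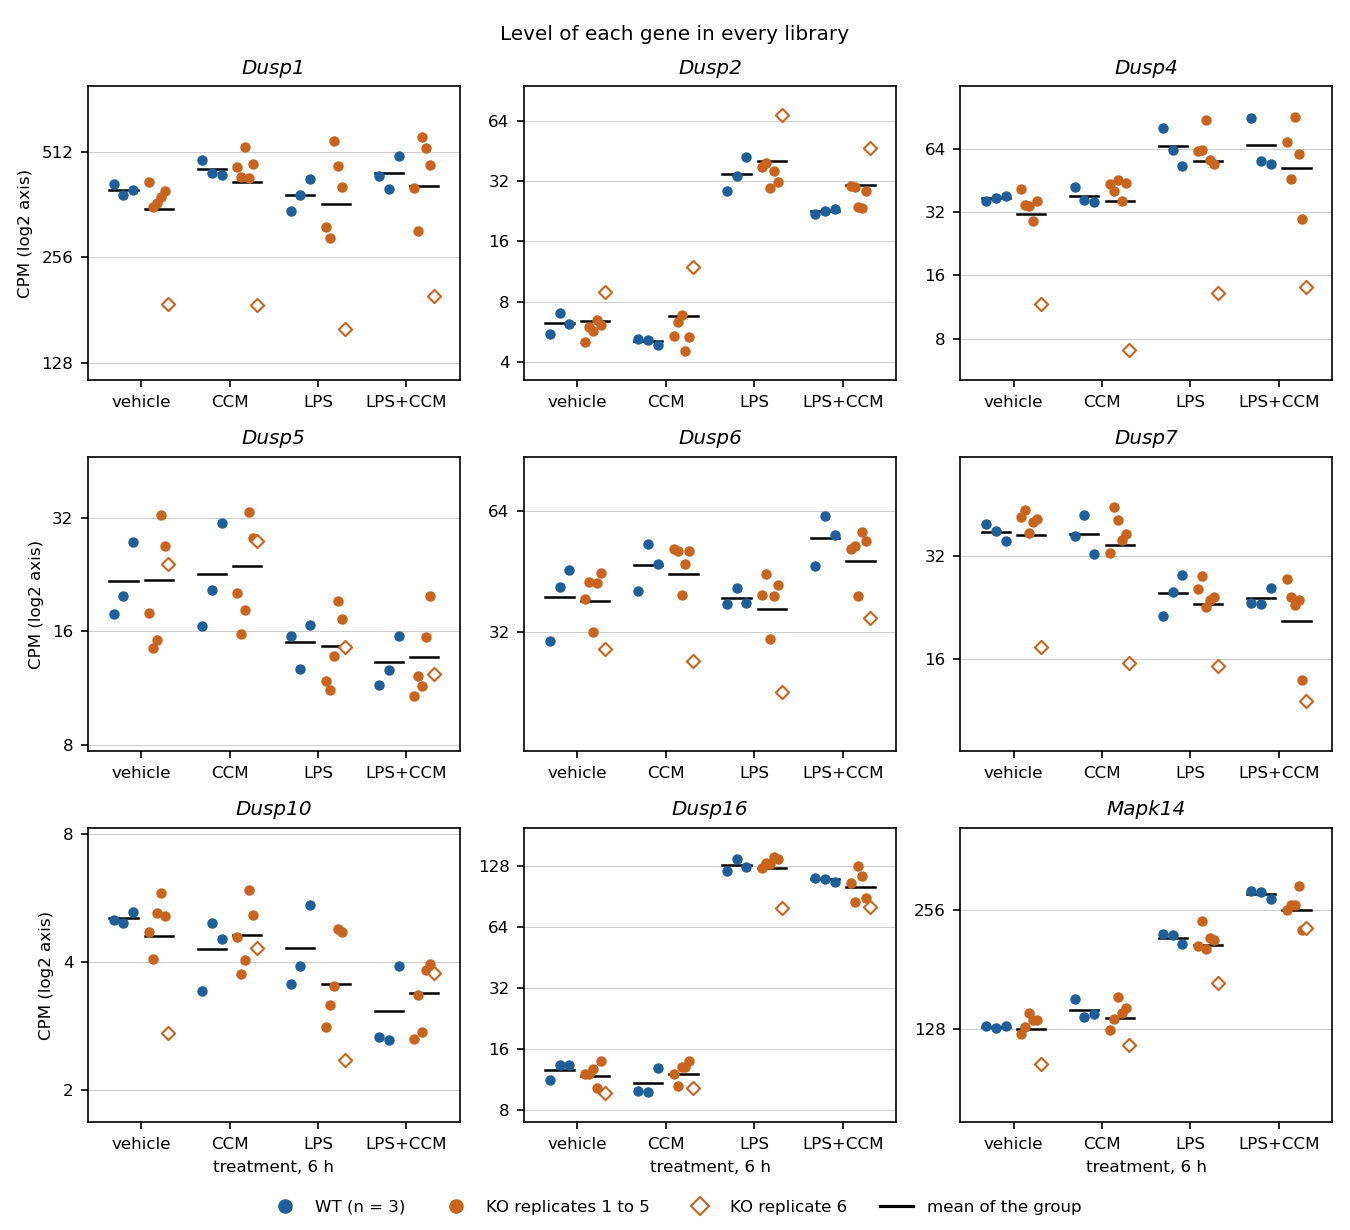
CPM of each gene (log2 axis) in every library, by treatment, for WT (blue, n = 3), KO replicates 1 to 5 (orange circles) and KO replicate 6 (open diamonds), with black lines at group means. Dusp16 and Dusp2 separate fully between vehicle and LPS in both genotypes, and KO replicate 6 lies below the other KO libraries for Dusp1 and Dusp4 and above them for Dusp2.

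The LPS results depend on the scaling in level but not in direction for the genes called. LPS moved the median of all genes by -0.47 (WT) and -0.44 (KO) on the log2 scale when libraries were scaled by total counts alone, and the split was then 17.6% higher and 55.6% lower in WT and 13.4% and 41.8% in KO. Upper-quartile scaling gave medians of -0.23 and -0.24 and splits of 23.7% and 42.1% and of 17.3% and 32.2%. Dusp16, Dusp2, Dusp4 and Mapk14 stayed positive and Dusp5 and Dusp7 negative under every scaling, whereas Dusp6 in WT went from 0.01 to -0.40 with total counts alone (edgeR adjusted p = 0.0276). In 1 fit of all 36 libraries the WT calls of Dusp4, Dusp5 and Dusp7 were lost (edgeR adjusted p of 0.233, 0.19 and 0.124).

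The next question was whether CCM changed the set in LPS-treated cells. In WT with LPS and without the block, CCM raised Mapk14 and Dusp6 and lowered Dusp2 and Dusp16. That is 2 of 9 genes called higher, against 4.15% of the 13579 genes tested, and 2 called lower, against 7.78%. The median log2 change over the set was -0.05, beside 0.01 over all genes. All 4 calls were lost in the 1 fit of all 36 libraries, in which WT and KO share an estimate of the spread (edgeR adjusted p of 0.271 for Mapk14, 0.798 for Dusp6, 0.983 for Dusp2 and 1 for Dusp16). Total counts alone moved the split over all genes from 564 higher and 1057 lower to 1539 higher and 733 lower.

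Mapk14 was at 223, 222 and 210 CPM with LPS and at 286, 285 and 272 CPM with LPS and CCM in WT. Every library with CCM was above every library without it, by 0.37 ± 0.05 SE on the log2 scale (edgeR adjusted p = 0.000511), or 1.29 times. The change with LPS alone had been 0.78, and both comparisons share the LPS libraries. Its KO values were 167 through 212 to 240 CPM with LPS and from 228 through 260 to 295 CPM with LPS and CCM, higher in 6 of 6 same-numbered pairs. Replicate numbers were not shown to pair the libraries of this KO comparison. The pair counts here and for Dusp6, Dusp2 and Dusp16 below are descriptions only. The KO change of 0.27 ± 0.10 SE had an interval of 0.05 to 0.49 and did not pass over all genes (edgeR adjusted p = 0.484, and 0.166 without replicate 6). It passed in the 1 fit of all libraries (0.29, edgeR adjusted p = 0.0427).

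Dusp6 was at 37.7, 41.1 and 37.8 CPM with LPS and at 46.6, 62.3 and 55.8 CPM with LPS and CCM in WT. The ranges did not overlap and the rise was 0.51 ± 0.09 SE (edgeR adjusted p = 0.00608). LPS alone had not moved this gene past the test. In KO it ran from 22.7 through 39.5 to 44.5 CPM with LPS and from 34.8 through 51.9 to 56.8 CPM with LPS and CCM, higher in 6 of 6 same-numbered pairs, with a change of 0.37 ± 0.16 SE that did not pass (edgeR adjusted p = 0.584, and 0.165 without replicate 6).

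Dusp2 and Dusp16, whose values with LPS are shared by the comparison above, were lower with CCM. In WT, Dusp2 went from 28.4, 33.7 and 42.3 CPM with LPS to 21.9, 22.6 and 23.3 CPM with LPS and CCM, without overlap (-0.62 ± 0.12 SE, edgeR adjusted p = 0.00864). The level with LPS and CCM was still above the 5.54 to 7.01 CPM of vehicle. In KO, Dusp2 ran from 29.4 through 36.7 to 68.0 CPM and from 23.3 through 29.2 to 46.6 CPM, lower in each of the 6 pairs, and the change of -0.44 ± 0.24 SE did not pass (edgeR adjusted p = 0.712). Without replicate 6, whose values were the highest, it was -0.37 (edgeR adjusted p = 0.14).

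Dusp16 went in WT from 121, 139 and 126 CPM to 112, 111 and 107 CPM, without overlap, a change of -0.22 ± 0.06 SE (edgeR adjusted p = 0.0301). The call was lost with total counts alone as the scaling (-0.14, edgeR adjusted p = 0.115), and without LPS replicate 2 or 3 or LPS+CCM replicate 2 or 3 (edgeR adjusted p of 0.0553 to 0.13). In KO it ran from 79.8 through 132 to 141 CPM and from 80.0 through 97.4 to 127.8 CPM, lower in 5 of 6 pairs, with replicate 6 at 79.8 and 80.0 CPM. The KO change was -0.34 ± 0.15 SE (edgeR adjusted p = 0.605, and 0.142 without replicate 6).

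Dusp1 was at 346, 385 and 428 CPM with LPS and at 435, 400 and 497 CPM with LPS and CCM in WT. The ranges overlapped, and the change of 0.21 ± 0.09 SE did not pass (edgeR adjusted p = 0.164). Blocked on replicate it was again 0.21 and passed (edgeR adjusted p = 0.00143), in a fit that called 10.4% of genes higher and 3220 genes in all, against 1621 without the block. For Dusp4, Dusp5, Dusp7 and Dusp10 the WT changes with CCM ran from -0.49 to 0.03 and none passed. That of Dusp10 was the largest in size, at -0.49 with an interval of -1.005 to 0.03.

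In KO with LPS none of the 9 genes was called with edgeR, against 0.112% of 13386 genes (15 genes). At an unadjusted p under 0.05 there were 3 of the 9 (Mapk14, Dusp6 and Dusp16) and 1070 of all genes, and DESeq2 called none of the 9. Blocked on replicate, Dusp6 was called higher (0.38, edgeR adjusted p = 0.0208), against 1.67% of genes, and Dusp2 lower (-0.42, edgeR adjusted p = 0.0216), against 4.14%, although the replicate numbers were not shown to pair the libraries of this comparison. A call in WT and none in KO does not show that the genotypes differ. The difference itself, tested as genotype by CCM under LPS, passed for none of the 9 and for 0% of 14546 genes (edgeR, 0 of the 9 and 72 of all genes at an unadjusted p under 0.05, and 0 of the 9 with DESeq2). Its intervals were -0.39 to 0.22 for Mapk14, -0.65 to 0.41 for Dusp6, -0.58 to 0.97 for Dusp2 and -0.57 to 0.37 for Dusp16, and each held both no difference and a loss of the whole WT change. Blocked on replicate, the intervals were -0.32 to 0.15 for Mapk14, -0.36 to 0.15 for Dusp6, -0.12 to 0.52 for Dusp2 and -0.44 to 0.23 for Dusp16. Each of these held no difference, and a loss of the whole WT change lay outside those of Mapk14, Dusp6 and Dusp2. Without replicate 6 and without the block, the 9 estimates ran from -0.16 (Dusp4) to 0.29 (Dusp10) and none passed. The KO library of replicate 5 with LPS and CCM, also low for Dusp4 (29.7 CPM) and Dusp7 (13.9 CPM), stayed in that fit.

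**Figure D4:**
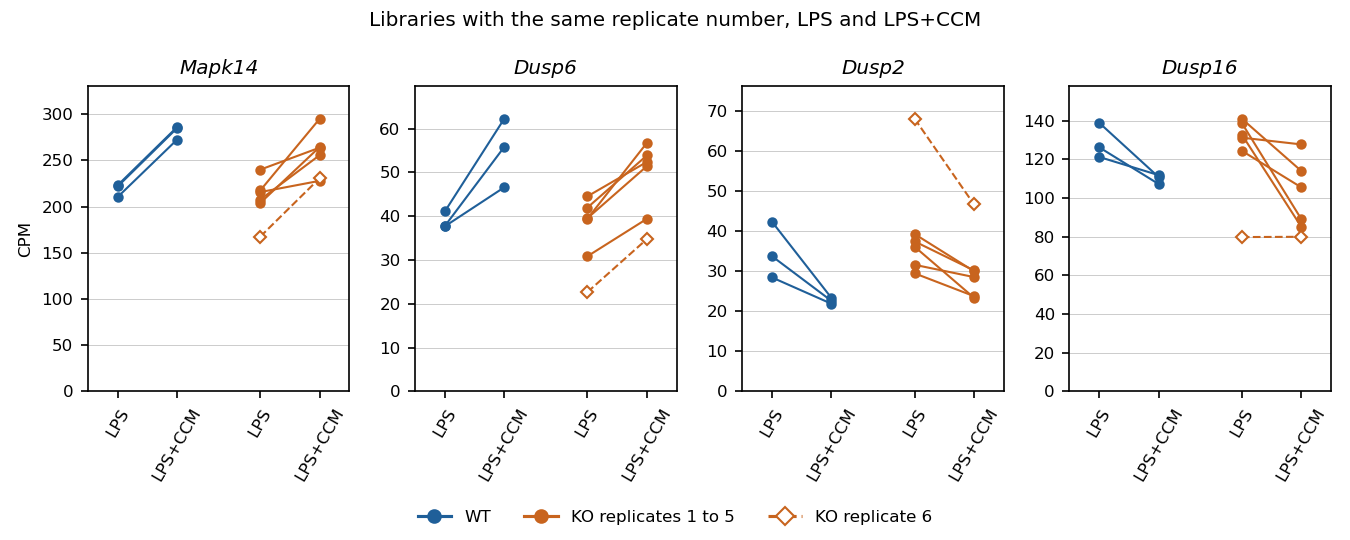
CPM of Mapk14, Dusp6, Dusp2 and Dusp16 with LPS and with LPS and CCM, lines joining libraries with the same replicate number, for WT (blue), KO replicates 1 to 5 (orange) and KO replicate 6 (open diamonds, dashed). In WT all 3 lines rise for Mapk14 and Dusp6 and fall for Dusp2 and Dusp16, and in KO all 6 rise for Mapk14 and Dusp6 and all 6 fall for Dusp2. The numbers were not shown to pair the KO libraries drawn here.

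Without LPS, CCM moved no gene of the set past the edgeR test without the block. Blocked on replicate, Dusp1 passed in KO. In WT none of the 9 was called, against 0.0570% of 14024 genes (8 genes), with 2 of the 9 at an unadjusted p under 0.05 (1404 of all genes). DESeq2 called 1 of the 9, Dusp1, against 2.41% of 10234 genes (247 genes). Dusp1 was at 414, 385 and 397 CPM with vehicle and at 484, 446 and 440 CPM with CCM, without overlap, a change of 0.21 ± 0.05 SE (edgeR adjusted p = 0.231). Mapk14 was at 131, 129 and 131 CPM and at 153, 137 and 140 CPM, also without overlap, a change of 0.15 ± 0.06 SE (edgeR adjusted p = 0.446). For the other 7 genes the estimates ran from -0.29 (Dusp2, at 5.20, 5.13 and 4.88 CPM with CCM and below every vehicle library) to 0.27 (Dusp6), none past the test.

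In KO without LPS none of the 9 genes was called, against 0% of 13799 genes, with 0 of the 9 and 333 of all genes at an unadjusted p under 0.05 and 0 of the 9 by DESeq2. Dusp1 ran from 188 through 373 to 419 CPM with vehicle and from 187 through 448 to 527 CPM with CCM, with replicate 6 lowest in both groups. The change was 0.24 ± 0.22 SE (edgeR adjusted p = 1). Blocked on replicate it was 0.23 ± 0.05 SE and passed (edgeR adjusted p = 0.0399), against 1.41% of genes called higher. Without replicate 6 and with the block, a fit chosen after seeing the data, Dusp1 (0.26, edgeR adjusted p = 0.00769), Dusp4 (0.24, edgeR adjusted p = 0.0172) and Dusp6 (0.24, edgeR adjusted p = 0.0139) were called higher, against 2.47% of genes.

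**Figure D5:**
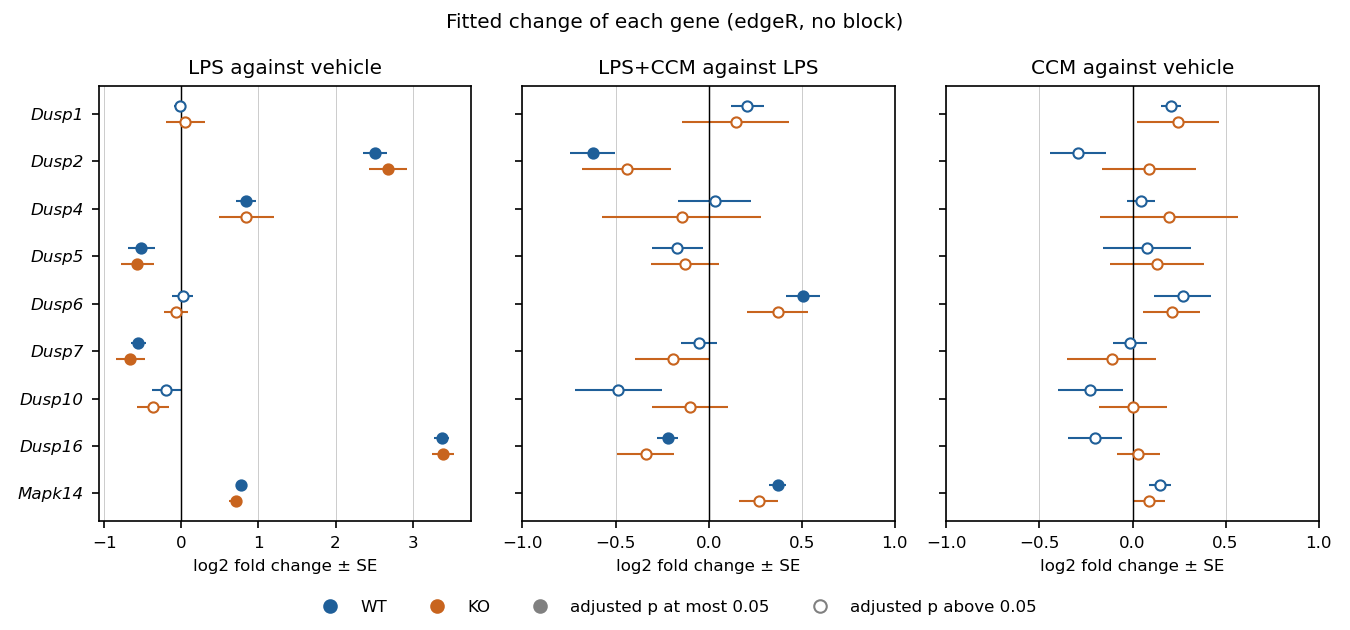
Log2 fold change ± SE of the 9 genes for LPS against vehicle, LPS+CCM against LPS and CCM against vehicle, in WT (blue) and KO (orange), with filled points where the adjusted p was at most 0.05. All values are from the edgeR fit without the block. The left panel has a wider axis. Filled points stand at 6 genes in WT and 5 in KO for LPS, at 4 in WT and 0 in KO for CCM under LPS, and at none for CCM alone.

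Whether the effect of CCM depended on LPS was tested as an interaction. In WT none of the 9 genes passed, against 2.09% of 14747 genes (edgeR). DESeq2 called none either, but only 7343 genes kept an adjusted p there and Dusp10 did not. At an unadjusted p under 0.05 in edgeR there were 1 of the 9 and 2060 of all genes. That 1 gene was Mapk14, whose change with CCM was larger by 0.21 ± 0.07 SE under LPS, with an interval of 0.05 to 0.37 (edgeR adjusted p = 0.188). It passed with total counts alone as the scaling (0.31, edgeR adjusted p = 0.0488), which moved the median of all genes to 0.11 and the split of calls from 69 higher and 239 lower to 230 higher and 117 lower. The estimate for Dusp2 was -0.34 (-0.76 to 0.07) and for Dusp6 0.22 (-0.20 to 0.65). In KO none of the 9 passed, against 0.00685% of 14588 genes (1 gene), with 0 of the 9 and 536 of all genes at an unadjusted p under 0.05 and 0 of the 9 by DESeq2. The KO estimate for Mapk14 was 0.20 (-0.05 to 0.45), and 0.19 without replicate 6, where again none of the 9 passed.

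No gene of the set passed a test between the genotypes. With vehicle none of the 9 genes was called, against 0% of 14385 genes, and with LPS none, against 0% of 13794 genes. In both comparisons 0 of the 9 had an unadjusted p under 0.05 (118 and 105 of all genes) and DESeq2 called 0 of the 9. Mapk14 differed between KO and WT by 0.02 (-0.20 to 0.25) with vehicle and by -0.04 (-0.28 to 0.19) with LPS, the narrowest intervals of the set. Dusp4 had the widest, at -0.22 (-0.87 to 0.43) and -0.21 (-1.13 to 0.71), and without replicate 6 its estimates were -0.06 and -0.01. Without that replicate the 9 estimates ran from -0.07 (Dusp2) to 0.14 (Dusp7) with vehicle and from -0.18 (Dusp10) to 0.08 (Dusp1) with LPS, and none passed. The genotype difference in the LPS response passed for none of the 9, against 0% of 15093 genes (edgeR, 0 of the 9 and 112 of all genes at an unadjusted p under 0.05, 0 of the 9 by DESeq2). The interval of that difference was -0.39 to 0.47 for Dusp16, -0.56 to 0.95 for Dusp2 and -0.33 to 0.23 for Mapk14. Without replicate 6 the estimates ran from -0.19 (Dusp10) to 0.10 (Dusp1), none past the test.

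Genes with the most similar pattern were sought among 10587 genes by the root mean square difference of centred log2 CPM over the 8 group means. For Dusp16, whose group means spanned 3.56 on the log2 scale, these were Ralgds (0.066) and Fcrlb (0.078). For Dusp2, spanning 2.91, they were Fam241a (0.115) and Gadd45b (0.121), the latter a stress-induced activator of p38 and JNK signalling. For Mapk14, spanning 1.14, they were Tmem268 (0.048) and Ecpas (0.063). The nearest genes of the others were Tbc1d24 and Usp22 for Dusp1, Bdp1 and Zfp407 for Dusp4, St6galnac4 and Atg13 for Dusp5, Klhl12 and Rprd1a for Dusp6, Cux1 and Ermp1 for Dusp7, and Zscan12 and Dynlt1f for Dusp10. The 8 means share libraries of the same replicates, and the measure carries no test.

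The rest of the pathway gives the setting for these values, from lists of other phosphatases and kinases. The lists were tested only without the replicate block, also where replicate numbers were taken as paired. With LPS in KO, 47.1% of all genes were called without the block and 71.6% with it. Beside the counts with LPS that follow, 30.6% of all genes were called higher and 32.4% lower in WT, and 22.4% and 24.7% in KO. Of all the listed genes tested, 22 of 60 were called higher and 26 lower in WT and 14 of 59 and 19 in KO. Without replicate 6 the KO counts were 22 of 59 higher, against 32.6% of all genes, and 28 lower, against 36.9%. In WT the remaining MAP kinase phosphatases, Dusp8 and Dusp9, were both lower with LPS (-0.91 and -1.28), and of 11 atypical dual-specificity phosphatases tested 2 were higher and 5 lower. Dusp28 rose by 1.76, and Dusp13 (-1.64), Dusp3 (-1.62), which can act on ERK and JNK, and Dusp22 (-1.60) were lower. The median of the atypical group was -0.46, beside -0.05 over all genes. In KO only Dusp9 of the first pair was called (-1.36), and the atypical group had 1 of 10 higher and 5 lower. Dusp28 was at 1.46, Dusp13 at -2.26, Dusp22 at -1.67 and Dusp3 at -1.57. Without replicate 6, Dusp13 did not pass the filter on low counts among the LPS-treated KO groups, so its fall ended at low counts.

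Of the other MAP kinases, 6 of 9 were higher and 1 lower with LPS in WT, with a median of 0.45, and 3 of 9 were higher and 1 lower in KO. Mapk11, the gene of p38β, rose by 1.57 in WT and 1.66 in KO, Mapk9 (JNK2) by 0.77 and 0.75, and Mapk3 (ERK1) was lower by the same measure (-0.71 and -0.76). Kinases upstream moved both ways: 3 of 7 MAP kinase kinases were higher and 3 lower in WT, with Map2k1, which activates ERK, at 1.78, Map2k6, which activates p38, at -3.20, and Map2k5 at -0.55. In KO these were 1.84, -2.25 and -0.71, with 1 of 7 higher and 2 lower. Among the LPS-treated groups only 6 of these 7 genes passed the filter on low counts. Without replicate 6 the gene left out in KO was Map2k6, so its fall ended at low counts. Of 15 genes for MAP3 kinases, TAB proteins and Tnip2, the last a binding partner of the MAP3K8 protein, 7 were higher (Tnip2 among them, 0.24) and 7 lower in WT and 5 and 3 in KO. They included Map3k8, the kinase upstream of ERK under Toll-like receptors, at 1.398 and 1.41.

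Downstream of p38, Mapkapk2 had the highest estimate of its list. Mapkapk2, the kinase through which p38 stabilises cytokine mRNAs, rose by 2.97 ± 0.07 SE in WT (edgeR adjusted p = 1.74e-10) and 2.98 ± 0.14 SE in KO (edgeR adjusted p = 1.6e-09). Rps6ka4 rose by 1.78 and 1.73, while Mknk2, which phosphorylates a translation initiation factor, changed by -2.23 and -2.26 and Rps6ka5 by -1.12 and -1.19. Over this list of MAPK-activated kinases 3 of 10 were higher and 6 lower in WT and 2 and 5 in KO. Of 6 Sprouty and Spred genes tested, inhibitors of the ERK cascade, 1 was higher and 2 lower in WT, with Spred1 at 1.88, Spred3 at -0.97 and Spry2 at -0.93, and 2 were higher and 2 lower in KO.

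With CCM under LPS in WT, 11 of 58 listed genes were called (19.0%), against 11.9% of all genes, 5 of them higher and 6 lower. Among the atypical phosphatases 1 of 10 was higher (Dusp3, 0.23, beside -1.62 with LPS alone) and 1 lower (Dusp28, -0.37, beside 1.76). Among the MAPK-activated kinases 1 of 10 was higher (Mknk2, 0.56 ± 0.06 SE, edgeR adjusted p = 0.000296) and 2 lower (Mapkapk2, -0.22, and Rps6ka2, -0.41). Among the MAP3 kinases, TAB proteins and Tnip2, 3 of 15 were higher (Map3k14, 0.37, Map3k4, 0.35 and Map3k3, 0.31) and none lower. Spred1 (-0.31), Map2k1 (-0.18) and Mapk6 (-0.20) were each the single gene called in their list, all lower, and Dusp8 and Dusp9 were not called. The comparisons with LPS and with CCM under LPS share the LPS libraries. In KO no gene of these lists was called with CCM under LPS, against 0.112% of all genes. Without LPS none was called in WT (0.0570% of all genes) or in KO (0%). These list counts are from fits without the block. With it, 3.11% of all genes were called for CCM in KO, and the lists were not tested there. Without replicate 6 none was called in KO, against 1.27% of all genes under LPS and 1.01% without LPS. The genotype by CCM interaction under LPS passed for 0 of 59 listed genes, against 0% of 14546 genes, so no difference between the genotypes was shown. In WT the interaction of LPS and CCM passed for Mknk2 (0.36), Dusp28 (-0.63) and Dusp11 (-0.31) among them.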

How the data were processed

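RNA was measured by polyA RNA-seq in 36 libraries, grouped by genotype and treatment as the labels give them. The authors trimmed reads with fastp, aligned them to mm10 with HISAT2 2.0.5 and counted them per gene with featureCounts 1.5.0-p3. The deposited values are raw counts for 54532 genes, with a gene length column used only to compare genes per kb.

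From these, edgeR 4.0.16 (R 4.3.3, limma 3.58.1) quasi-likelihood tests were run per comparison on the groups compared, with TMM scaling, genes kept by filterByExpr (minimum count 10) and Benjamini-Hochberg adjustment over all genes tested. A call is an adjusted p of at most 0.05, two-sided, and intervals are 95% intervals. CPM levels used TMM factors over all libraries. Overlap of groups and counts of same-numbered pairs describe the libraries and carry no test, and their shares over all genes were not counted. Alternatives were other scalings, no filter, a replicate block, 1 fit of all libraries, DESeq2 1.42.0 and leaving out each replicate. KO replicate 6 was also left out in the 4 KO comparisons together with the block, and in the tests of the pathway lists, both choices made after seeing the data.

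Library totals were 13469262 to 28288923 counts (median 19951421) and a gene of the set had at least 29 counts in a library. Within a group the chi-square per degree of freedom between libraries was at least 4.34, so libraries differed by more than sampling noise and each was counted once. Between KO libraries with LPS and CCM it ran from 11.1 to 339. In that group replicate 5 was at 29.7 CPM for Dusp4 and 13.9 for Dusp7. Only replicate 6 was lower (14.1 and 12.0), and the next values up were 46.0 (replicate 2) and 23.0 (replicate 3). Tests without replicate 6 kept the library of replicate 5, and tests without replicate 5 kept that of replicate 6. The study gives replicates as mice.

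Replicate numbers are shared between treatments, and nothing in the labels says what a number marks. Comparisons with every same-numbered correlation over 0.1 were taken as paired. These were LPS in KO (0.298 to 0.83), CCM in KO (0.337 to 0.844) and CCM under LPS in WT (0.151 to 0.36). LPS in WT (0.0469 to 0.173), CCM in WT (0.0511 to 0.466) and CCM under LPS in KO (-0.1 to 0.81) were not. The median correlation of libraries with different numbers was 0.172 for LPS in KO and 0.221 for CCM in KO. Passing 0.1 therefore does not by itself show pairing there. In each of them 11 of 12 libraries correlated best with their own number. The median was -0.132 for CCM under LPS in WT. Where libraries were not taken as paired it was -0.0702 (LPS, WT), -0.0967 (CCM, WT) and -0.00259 (CCM under LPS, KO).

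The 9 genes and the pathway and marker lists were chosen with earlier results of these data known. All 9 genes are named, with up to 4 called genes of each list by size of change, and the 2 genes of most similar pattern. Promoter windows came from RefSeq (GRCm38.p6).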

Additional observations from a re-analysis of the deposited data

Results flagged for a closer look

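Of 40 combinations of a gene (the 9 and Arntl) and a KO group of 6 libraries, 10 held a library whose gap to the nearest other library, as a share of the group's range (Dixon's ratio, here 0.636 to 0.761), was over the 95% critical value, where chance alone gives about 1 in 20. In all 10 that library was KO replicate 6, so they are one pattern and not separate ones.

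Dusp2 was high in replicate 6 in each treatment, at 8.99 CPM with vehicle (nearest other library 6.47), 11.97 with CCM (6.90), 68.02 with LPS (39.2) and 46.62 with LPS and CCM (30.2). Dusp1 was low there, at 188.3 CPM with vehicle (nearest 355.5) and 187.2 with CCM (430.1). Dusp4 was at 7.10 CPM with CCM (36.2), Dusp7 at 17.35 with vehicle (37.4), Dusp16 at 79.84 with LPS (124.5) and Arntl at 2.87 with vehicle (6.40). The LPS rise of Dusp2 within this replicate (8.99 to 68.02 CPM) still went the way of the others. The summed neutrophil markers were 952 to 980 CPM in this replicate and 328 to 903 CPM in the other KO replicates, and their part in these values was not tested.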

How the results depend on the processing

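The design had 3 WT replicates and 1 time point, and depth limits precision for Dusp10 (29 counts at its lowest). The number of the 9 genes called changed as follows. For LPS in WT it was 6, 3 in 1 fit of all 36 libraries, and 5 to 6 leaving out each replicate. For LPS in KO it was 5, 7 with the replicate block (adding Dusp4 and Dusp10), and 4 to 6 leaving out each replicate. CCM in WT gave 0 and, with DESeq2, which called 2.41% of all genes, 1 (Dusp1, DESeq2 adjusted p = 0.0217). CCM in KO gave 0, 1 with the replicate block and 3 with the block without replicate 6. CCM under LPS in WT gave 4, 5 with the replicate block (adding Dusp1), 0 in the fit of all libraries and 3 to 4 leaving out each replicate. CCM under LPS in KO gave 0, 2 with the replicate block (Dusp2, -0.42, edgeR adjusted p = 0.0216, and Dusp6, 0.38, edgeR adjusted p = 0.0208) and 1 in the fit of all libraries (Mapk14). The LPS by CCM interaction in WT gave 0 and 1 with total counts alone (Mapk14). Leaving out each replicate gave 0 in every other comparison.

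The only value that changed sign and was called was Dusp6 with LPS in WT, at -0.40 with total counts alone. That scaling also called Dusp1 (-0.43) and Dusp10 (-0.61) lower in WT, and upper-quartile scaling called Dusp1 (-0.20) lower. For LPS in KO, DESeq2 called Dusp4 (adjusted p = 0.042), total counts alone and upper-quartile scaling called Dusp10, and Dusp5 was lost with RLE size factors (edgeR adjusted p = 0.0558) and with no filter (0.0561). For CCM under LPS in WT, Dusp1 was called with total counts alone (edgeR adjusted p = 0.0477) and with no filter (0.00141). The causes were not tested.

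Over all genes, the replicate block moved the calls from 6433 to 9774 (LPS in KO), 0 to 429 (CCM in KO), 1621 to 3220 (CCM under LPS, WT), 15 to 777 (the same in KO), 8 to 255 (CCM in WT), 308 to 548 (interaction in WT) and 1 to 81 (interaction in KO). The fit of all 36 libraries moved them from 9139 to 5644 (LPS in WT), 1621 to 17 (CCM under LPS, WT libraries), 15 to 285 (the same in KO) and 308 to 0 (interaction in WT). Without replicate 6 the KO counts were 9612 (LPS), 141 (CCM) and 170 (CCM under LPS). Where replicate numbers were not shown to pair the samples, 6 of 6 libraries (LPS, WT), 5 of 6 (CCM, WT) and 8 of 12 (CCM under LPS, KO) correlated best with the library of their own number. The block changed no call of the 9 genes other than those given here and in the report.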
